A study of Homo sapiens with 5 samples.

Results

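Genes of lipid uptake, triacylglycerol synthesis and lipid droplet turnover were followed under low and restored oxygen in MDA-MB-231, a human breast cancer cell line that lacks oestrogen and progesterone receptors and HER2 amplification. The 10 genes of the set were taken by symbol from the 26475 rows of the deposited tables: VLDLR, FABP3, LPIN1, DGAT1, DGAT2, PLIN2, PLIN3, PNPLA2, HILPDA and G0S2. All 10 had a row, and 9 passed the filter of at least 1 CPM, a count scaled to the size of its library, in at least 1 library; FABP3 had no count in any library. RNA sequencing gave 5 libraries, 1 per condition: 1% O2 for 1 day, 20% O2 for 1 day, reoxygenated cells (10 days at 1% O2, then 10 days at 20% O2), 1% O2 for 10 days, and 20% O2 for 10 days. No other agent is named in the labels, and all libraries come from 1 cell line. The reoxygenated cells had therefore been in culture longer than the 20% O2 cells of day 10 with which they were compared.

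Lipid droplets are stores of triacylglycerol and sterol esters bounded by a single phospholipid layer that carries perilipins and enzymes. Fatty acids reach them from lipoproteins taken up by receptors, from albumin-bound fatty acids and from synthesis; phosphatidic acid phosphatases and diacylglycerol acyltransferases build the triacylglycerol, and adipose triglyceride lipase starts its breakdown. Cancer cells kept at low oxygen are known to gather lipid droplets, and several genes named here are known targets of the hypoxia-inducible factors, transcription factors that bind the core sequence ACGTG or GCGTG.

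The deposited estimated counts summed to between 7719807 and 12544941 per library, so that 1 read was worth 0.0797 to 0.13 CPM before TMM scaling. Levels are given as CPM scaled with TMM factors, which correct for composition. In such bulk RNA, a higher level in every cell and a high level in more of the cells cannot be told apart. With 1 library per condition, a log2 difference between 2 libraries has no replicate check and no p-value, and its exact 95% interval covers counting error alone. CA9, a hypoxia-inducible factor target used to check the oxygen labels, had 51.9 CPM after 1 day at 1% O2, against 5.10 CPM at 20% O2; it had 3.65 CPM in reoxygenated cells, 68.7 CPM after 10 days at 1% O2 and 8.48 CPM after 10 days at 20% O2. Of 10 adipocyte markers, 3 to 5 had a count in a library, and their sum lay between 3.77 and 11.02 CPM, with the highest at 1% O2 on day 10; ADIPOQ, LEP, AQP7, CIDEA and CIDEC were at 0 in every library. Of the 3 adipocyte markers that passed the filter, 2 were at least 2-fold higher at 1% O2 on day 10 and none lower. Of all genes, 14.4% were higher there. None of the 3 passed 2-fold on day 1, where 2.96% of all genes did. All 3 were at least 2-fold lower in reoxygenated cells than at 1% O2 on day 10, where 11.1% of all genes were. PLIN4, 1 of the 3, passed the filter only through the 1% O2 library of day 10. The part of adipocyte RNA in the results below was not tested. Hepatocyte markers (6 genes) summed to at most 3 counts. Of 6 macrophage and blood markers, CD68, which many tumour lines express, had 1530 to 2140 counts, whereas the pan-leukocyte gene PTPRC had 1 to 28 and the haemoglobin gene HBB none. All 6 together had 1567 to 2181 counts. Of the 4 that passed the filter, 2 were at least 2-fold higher at 1% O2 on day 10 and none lower, where 14.4% of all genes were higher. On day 1 none was higher and 1 was lower, where 0.839% of all genes were lower. For the line itself, the mesenchymal gene VIM had 8945 to 23189 counts, and the oestrogen and progesterone receptor genes ESR1 and PGR had 0 to 4. All 6 mesenchymal markers together had 25433 to 48017 counts, with 5 or 6 of them at 1 CPM or more in each library. Of these 6, 1 was at least 2-fold higher and 1 lower at 1% O2 on day 10, where 14.4% of all genes were higher and 7.06% lower. The 6 luminal and receptor markers, ESR1 and PGR among them, had 615 to 919 counts, with 3 or 4 at 1 CPM or more. The low counts of ESR1 and PGR thus do not hold for that whole list.

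VLDLR encodes the receptor for very low density lipoproteins, which takes triacylglycerol-rich lipoproteins into the cell. Its RefSeq promoter (GRCh38.p14, 250 bases before to 50 after the gene start) was 1 of 7 matched by symbol, with those of PLIN2, PLIN3, PNPLA2, LPIN1, G0S2 and FABP3; HILPDA, DGAT1 and DGAT2 were not matched. Promoters of 3 genes are shown because their genes behaved differently at 1% O2: VLDLR was higher on both days, PLIN2 differed little, and PNPLA2 was higher on day 10 and not on day 1. Capitals mark each ACGTG or GCGTG on either strand, so that CACGT and CACGC are matches on the opposite strand. The regions are chr9:2621537-2621836 on the plus strand for VLDLR, chr9:19127443-19127742 on the minus strand for PLIN2 and chr11:818664-818963 on the plus strand for PNPLA2, each written 5′ to 3′ in the direction of the gene.
VLDLR: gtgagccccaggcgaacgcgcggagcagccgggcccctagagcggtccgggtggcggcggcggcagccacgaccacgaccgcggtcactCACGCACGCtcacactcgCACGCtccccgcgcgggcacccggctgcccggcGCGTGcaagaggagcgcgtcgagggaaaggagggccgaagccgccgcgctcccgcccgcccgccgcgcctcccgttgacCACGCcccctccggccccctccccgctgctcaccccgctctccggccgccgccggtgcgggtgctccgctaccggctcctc
PLIN2: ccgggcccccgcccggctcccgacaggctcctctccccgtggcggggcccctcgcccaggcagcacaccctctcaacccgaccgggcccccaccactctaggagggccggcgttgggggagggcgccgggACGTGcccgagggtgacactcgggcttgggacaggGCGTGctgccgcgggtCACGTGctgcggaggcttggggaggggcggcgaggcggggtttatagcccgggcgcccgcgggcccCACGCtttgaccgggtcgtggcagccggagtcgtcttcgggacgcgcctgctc
PNPLA2: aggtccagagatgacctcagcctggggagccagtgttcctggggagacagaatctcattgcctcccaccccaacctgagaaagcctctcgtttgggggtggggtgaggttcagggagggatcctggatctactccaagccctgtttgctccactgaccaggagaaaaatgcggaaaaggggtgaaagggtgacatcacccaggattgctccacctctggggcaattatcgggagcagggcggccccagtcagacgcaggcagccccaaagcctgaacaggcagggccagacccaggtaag

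The VLDLR promoter held 5 such matches, all GCGTG, starting 161, 157, 143, 110 and 31 bases before the gene start. The PLIN2 promoter also held 5, at 120, 85, 69, 68 and 3 bases before the start; those at 69 and 68 overlap in the palindrome CACGTG, which is also the E-box motif. The PNPLA2 promoter held none. Of 35116 promoters of the same length, 48.5% held at least 1 match and 1.98% held at least 5. G0S2 had 4 matches, PLIN3 and FABP3 3 each, and LPIN1 had 1. The LPIN1 window, chr2:11746382-11746681, lies inside the gene, which runs on the plus strand from 11677544 to 11827409. The LPIN1 match therefore does not describe the bases around that gene start. The direct repeat bound by the peroxisome proliferator-activated receptors, a pair of AGGTCA with 1 base between them, was searched on both strands as well. None of these 7 promoters held this exact repeat, against 8 of all 35116 (0.0228%). At so low a share, its absence from 7 promoters carries no information on these genes. A match describes the letters in this window and is not a measured binding site.

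Among the uptake genes, VLDLR (chromosome 9, 2621787 to 2660056, 19 exons in its longest coding transcript) was higher at 1% O2 on both days. It had 38.2 CPM after 1 day at 1% O2, against 15.8 CPM at 20% O2, from 412 and 164 counts. On day 10 it had 55.2 CPM at 1% O2, against 19.6 CPM at 20% O2, from 576 and 240 counts. Both 1% O2 libraries lay above the 3 libraries harvested at 20% O2, among which the reoxygenated cells were at 23.0 CPM. The log2 difference was 1.26 after 1 day (1.01 to 1.54) and 1.49 after 10 days (1.28 to 1.72). The day 10 difference exceeded that of day 1 by 0.22 on the log2 scale, with an interval of −0.13 to 0.57 that includes 0. In edgeR's quasi-likelihood test over the 4 libraries of day 1 and day 10, with oxygen and day as terms, VLDLR rose at 1% O2 by a log2 change of 1.40 (SE 0.29, Benjamini-Hochberg adjusted p = 0.00869), higher on both days. Over 11 other settings its adjusted p ran from 0.00108 to 1.00. It passed 0.05 in 7 of them, among them DESeq2 (adjusted p = 0.0275) and limma-voom (adjusted p = 0.00385). The call was lost without the day term (adjusted p = 0.772 in edgeR) and without the 20% O2 library of day 1 (1.00), the 20% O2 library of day 10 (1.00) or the 1% O2 library of day 10 (0.153). In the first 3 of these settings edgeR called 0 genes of all those tested, and in the last it called 22. The antisense row VLDLR-AS1, which shares 738 exonic bases with VLDLR in GENCODE release 29, had 0 to 4 counts per library.

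FABP3, the heart-type fatty acid binding protein that carries fatty acids through the cytosol, lies on chromosome 1 (31359588 to 31373076). The exact 95% Poisson upper limit of a count of 0 is 0.301 to 0.464 CPM over the 5 libraries, on the scale used for the other genes. Its transcripts shared none of their 50-base words with other genes; over the 10 genes this share ran from 0 to 13.5%, highest for PLIN3, most often shared with the antisense AC027319.1. No difference could be computed for it.

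Enzymes of triacylglycerol synthesis differed less and in more than 1 pattern. LPIN1 encodes lipin 1, a phosphatidic acid phosphatase that supplies diacylglycerol and also acts on transcription in the nucleus. LPIN1 had 122 CPM after 1 day at 1% O2, against 117 CPM at 20% O2. It had 104 CPM in reoxygenated cells, 117 CPM after 10 days at 1% O2 and 80.8 CPM after 10 days at 20% O2. The 20% O2 library of day 10 was thus the low one, and the other 4 lay between 104 and 122 CPM. The log2 difference at 1% O2 was 0.06 after 1 day (−0.05 to 0.17) and 0.53 after 10 days (0.41 to 0.66), and reoxygenated cells were higher than the 20% O2 cells of day 10 by 0.37 (0.23 to 0.50). At 20% O2 alone, LPIN1 on day 10 differed from day 1 by −0.53 (−0.65 to −0.41), as large a difference as that between oxygen levels on day 10.

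DGAT1 and DGAT2 encode unrelated diacylglycerol acyltransferases, both of which catalyse the last step of triacylglycerol synthesis; DGAT1 is known for re-esterifying fatty acids taken up or released, DGAT2 for working at the droplet surface. DGAT1 had 10.8 CPM after 1 day at 1% O2, against 15.6 CPM at 20% O2. It had 17.4 CPM in reoxygenated cells, 25.3 CPM after 10 days at 1% O2 and 13.9 CPM after 10 days at 20% O2. The 1% O2 libraries were thus the lowest and the highest of the 5. The log2 difference was −0.52 after 1 day (−0.88 to −0.17) and 0.85 after 10 days (0.58 to 1.14). It rested on 117 counts at 1% O2, against 162 at 20% O2, on day 1, and on 264 counts, against 171, on day 10. Its exons overlap those of HSF1 on the opposite strand by 139 bases, and HSF1 had 565 to 921 counts. They also share 444 bases with AC233992.1 on the same strand, and 9.03% of the 50-base words of DGAT1 transcripts occur in another gene, most often that one. How reads there were shared out is not known, because the strand setting is not given in the sources used here.

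DGAT2 was counted less well, with 31 to 82 counts per library. It had 5.00 CPM after 1 day at 1% O2, against 5.39 CPM at 20% O2, and 3.90 CPM in reoxygenated cells, 7.86 CPM after 10 days at 1% O2 and 5.46 CPM after 10 days at 20% O2. The log2 difference of day 10 was 0.51 with an interval of 0.04 to 1.01, and that of day 1, −0.10, was not distinguishable from 0 at this depth (−0.67 to 0.46). Reoxygenated cells had less DGAT2 than cells after 10 days at 1% O2, by a log2 difference of −0.98 (−1.66 to −0.40). The exons of DGAT2 share 423 bases with AP003031.1 on the opposite strand. Of the 50-base words of DGAT2 transcripts, 5.68% occur in another gene, most often that one.

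**Figure D1:**
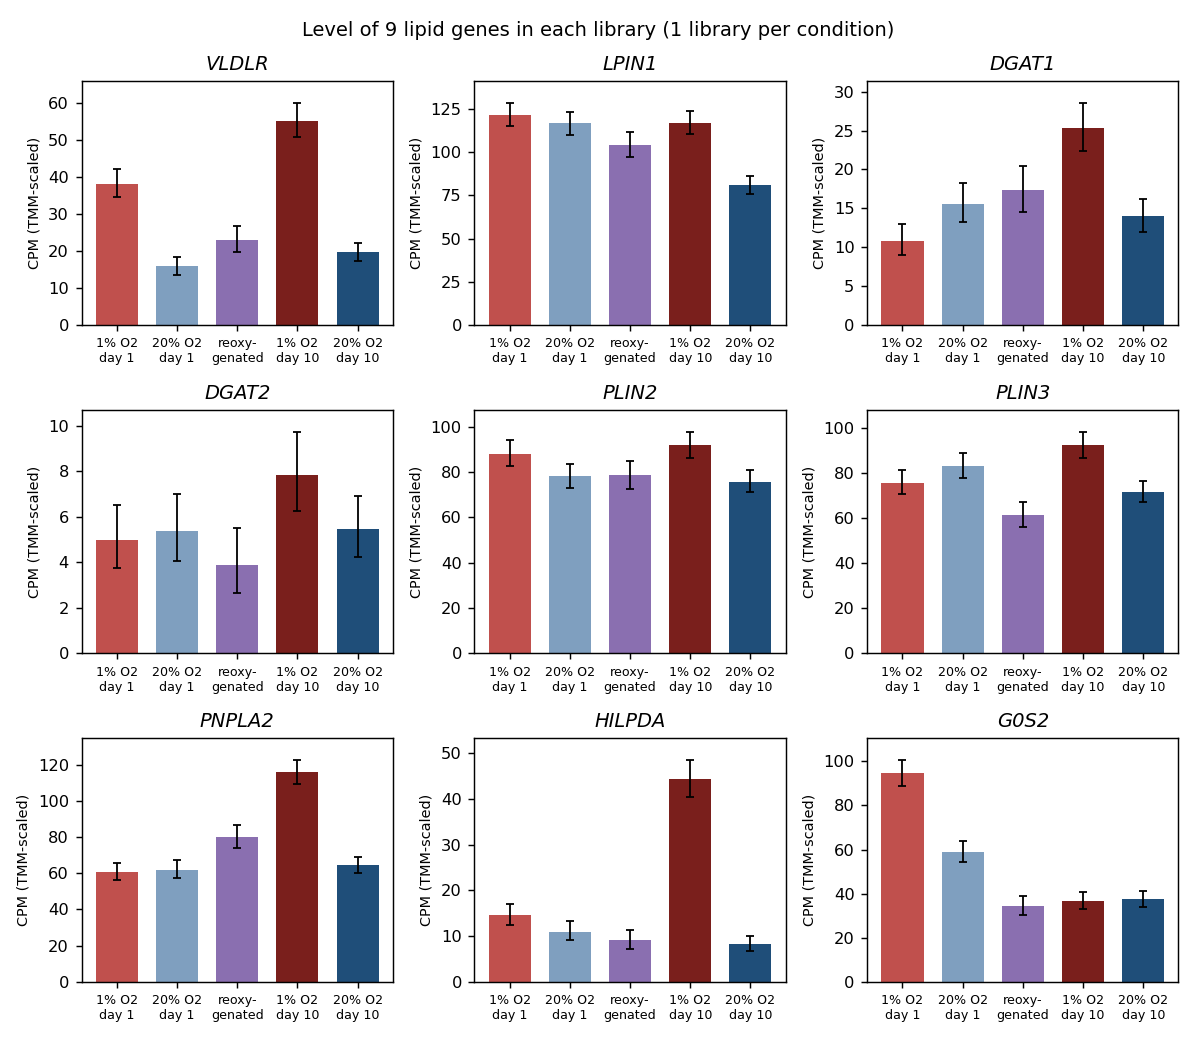
Level of the 9 counted genes in each of the 5 libraries, as CPM with TMM factors. Bars are single libraries and error bars are exact 95% Poisson intervals, which cover counting error. HILPDA stands at 44.3 CPM after 10 days at 1% O2 and at 8.16 to 14.5 CPM elsewhere, whereas G0S2 is highest after 1 day at 1% O2, at 94.6 CPM.

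The perilipin genes PLIN2 and PLIN3 differed by at most 0.36 on the log2 scale between 1% O2 and 20% O2 on the same day. PLIN2 encodes perilipin 2, the coat protein found on droplets of most non-adipose cells and degraded when it is not bound to them. PLIN2 had 88.1 CPM after 1 day at 1% O2, against 78.0 CPM at 20% O2. It had 78.6 CPM in reoxygenated cells, 91.8 CPM after 10 days at 1% O2 and 75.8 CPM after 10 days at 20% O2. Both 1% O2 libraries lay above the other 3, by a small margin: the log2 difference was 0.18 after 1 day (0.04 to 0.31) and 0.28 after 10 days (0.14 to 0.41). In edgeR's test over 4 libraries PLIN2 had a log2 change of 0.24 (SE 0.26, adjusted p = 0.755). PLIN3, a perilipin that shuttles between cytosol and new droplets, had 75.6 CPM after 1 day at 1% O2, against 82.9 CPM at 20% O2. On day 10 PLIN3 had 92.2 CPM at 1% O2, against 71.5 CPM at 20% O2, and reoxygenated cells had the lowest level of the 5, 61.1 CPM. Its log2 difference was −0.13 after 1 day (−0.27 to 0.01), 0.36 after 10 days (0.23 to 0.50) and −0.23 in reoxygenated cells against 20% O2 of day 10 (−0.39 to −0.07). Against 1% O2 of day 10, reoxygenated cells differed by −0.59 in PLIN3 (−0.75 to −0.43) and by −0.22 in PLIN2 (−0.37 to −0.08).

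PNPLA2 encodes adipose triglyceride lipase, the enzyme that removes the first fatty acid from triacylglycerol. The exons of PNPLA2 share 332 bases with AP006621.1 on the opposite strand. Of its 50-base words, 6.68% occur in another gene, most often that one. How reads there were shared out is not known, which also bears on the ratios to PNPLA2 below. PNPLA2 had 60.7 CPM after 1 day at 1% O2, against 62.1 CPM at 20% O2. It had 80.3 CPM in reoxygenated cells, 116 CPM after 10 days at 1% O2 and 64.4 CPM after 10 days at 20% O2. The day 1 libraries and the 20% O2 library of day 10 were close together, the 1% O2 library of day 10 was the highest, and the reoxygenated cells lay between. The log2 difference was −0.03 after 1 day (−0.19 to 0.13) and 0.85 after 10 days (0.72 to 0.98), and reoxygenated cells were higher than the 20% O2 cells of day 10 by 0.32 (0.17 to 0.47).

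HILPDA and G0S2 encode small proteins that bind adipose triglyceride lipase and inhibit it. HILPDA (chromosome 7, 128455878 to 128458418) was named for its induction by hypoxia; G0S2 (chromosome 1, 209675412 to 209676390) is known as the stronger inhibitor. Of the 50-base words of HILPDA transcripts, 10.6% occur in another gene, most often the overlapping AC010655.2 on the same strand. HILPDA had 14.5 CPM after 1 day at 1% O2, against 10.98 CPM at 20% O2, from 157 and 114 counts. It had 9.05 CPM in reoxygenated cells, 44.3 CPM after 10 days at 1% O2 and 8.16 CPM after 10 days at 20% O2, from 72, 462 and 100 counts. The 1% O2 library of day 10 stood apart from the other 4. The log2 difference was 0.40 after 1 day (0.05 to 0.77) and 2.41 after 10 days (2.13 to 2.77), a 5.32-fold difference on day 10. The day 10 difference exceeded that of day 1 by 2.01 on the log2 scale (1.55 to 2.52). In edgeR's test over 4 libraries HILPDA had a log2 change of 1.45 (SE 0.39) and an adjusted p of 0.0685, higher on both days, and missed the threshold. Over 11 other settings its adjusted p ran from 0.000625 to 1.00, and 4 of them called it, among them limma-voom (adjusted p = 0.013) and edgeR without the filter on low counts (adjusted p = 0.00362), as well as edgeR without the 1% O2 library of day 1 (adjusted p = 0.000625). The log2 change itself was 0.61 without the 1% O2 library of day 10 and 2.27 without that of day 1.

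G0S2 went another way. It had 94.6 CPM after 1 day at 1% O2, against 58.8 CPM at 20% O2. It had 34.5 CPM in reoxygenated cells, 36.7 CPM after 10 days at 1% O2 and 37.4 CPM after 10 days at 20% O2. The 3 later libraries did not differ beyond counting error, and both day 1 libraries lay above them. The log2 difference was 0.68 after 1 day (0.54 to 0.83) and −0.03 after 10 days (−0.23 to 0.17); the day 10 value lay at 0.10 with library totals as the scaling and at 0.05 with a filter of 5 CPM. At 20% O2 alone, G0S2 on day 10 differed from day 1 by −0.65 (−0.83 to −0.48).

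Ratios of counts within a library do not depend on the scaling between libraries, and were computed after the levels had been seen. HILPDA made up 13.3% of the counts of both inhibitors after 1 day at 1% O2 (exact 95% interval 11.4% to 15.4%), against 15.7% at 20% O2 (13.1% to 18.6%). It made up 20.8% in reoxygenated cells (16.7% to 25.5%), 54.7% after 10 days at 1% O2 (51.2% to 58.1%) and 17.9% after 10 days at 20% O2 (14.8% to 21.3%). The share after 10 days at 1% O2 lay outside the intervals of the other 4 libraries, whereas the pair of day 1 overlapped. These are shares of reads, and G0S2 transcripts are the shorter, so that the shares do not equal shares of molecules.

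Set against the lipase itself, G0S2 had 1.56 counts per count of PNPLA2 after 1 day at 1% O2 (1.41 to 1.72), against 0.947 at 20% O2 (0.847 to 1.06). This ratio was 0.429 in reoxygenated cells (0.371 to 0.495), 0.317 after 10 days at 1% O2 (0.281 to 0.355) and 0.582 after 10 days at 20% O2 (0.517 to 0.654). G0S2 per PNPLA2 was thus higher at 1% O2 than at 20% O2 on day 1 and lower on day 10. HILPDA had 0.240 counts per count of PNPLA2 after 1 day at 1% O2 (0.2 to 0.286), against 0.177 at 20% O2 (0.144 to 0.216). The ratio was 0.113 in reoxygenated cells (0.0871 to 0.144), 0.382 after 10 days at 1% O2 (0.342 to 0.425) and 0.127 after 10 days at 20% O2 (0.102 to 0.156).

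**Figure D2:**
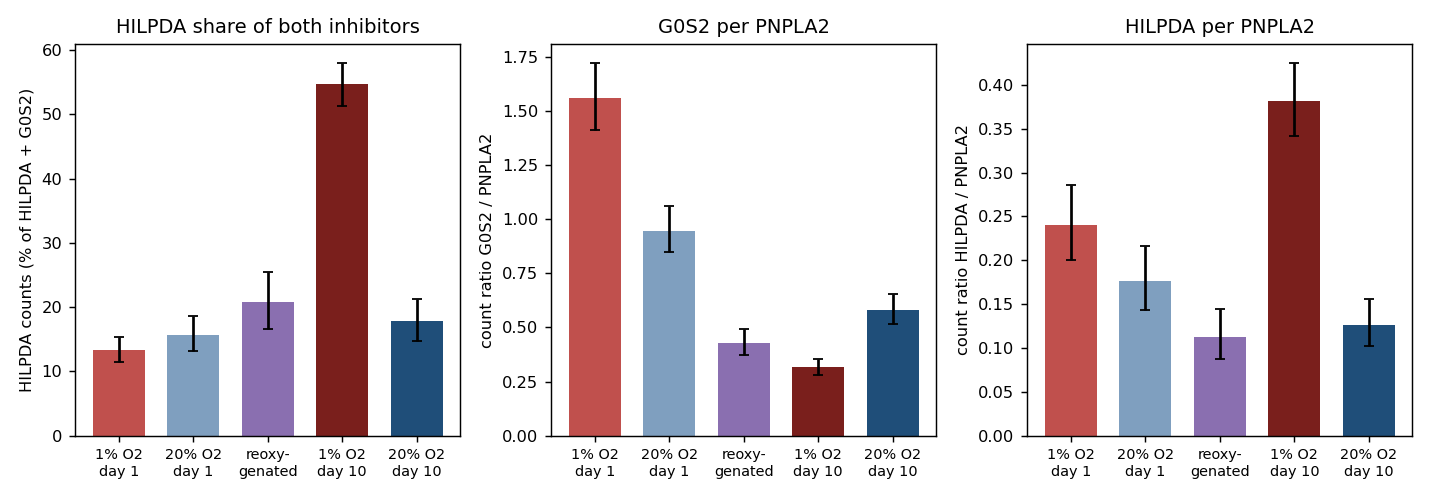
Count ratios within each library for both inhibitors of adipose triglyceride lipase and for its gene PNPLA2, with exact 95% intervals for counting error (1 library per bar). The left panel shows the HILPDA share of HILPDA plus G0S2 counts, at 54.7% after 10 days at 1% O2 and between 13.3% and 20.8% in the other libraries; the middle and right panels show G0S2 and HILPDA counts per PNPLA2 count.

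Levels of different genes were compared per kilobase of merged coding-transcript exons in GENCODE release 29, since longer transcripts give more reads. After 10 days at 20% O2 the order was G0S2 (43.2 CPM per kilobase), PLIN2 (32.9), PLIN3 (30.7), PNPLA2 (26.5), LPIN1 (13.3), HILPDA (5.86), DGAT1 (3.76), DGAT2 (2.23) and VLDLR (2.14). After 10 days at 1% O2 PNPLA2 led at 47.7 CPM per kilobase, followed by G0S2 (42.4), PLIN2 (39.9), PLIN3 (39.5), HILPDA (31.8), LPIN1 (19.2), DGAT1 (6.82), VLDLR (6.02) and DGAT2 (3.20). Neighbours whose Poisson intervals overlapped were PLIN2 and PLIN3, and DGAT2 and VLDLR, at 20% O2. They were PNPLA2, G0S2, PLIN2 and PLIN3, each with the next, and DGAT1 and VLDLR, at 1% O2. On this scale HILPDA passed LPIN1 in the 1% O2 library of day 10, and VLDLR passed DGAT2. The authors' annotation is not given in the sources used here, so the lengths are approximate.

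Against the size rule of a 2-fold difference (a log2 difference of at least 1), 1 of the 9 genes, VLDLR, was higher after 1 day at 1% O2 and none was lower, where 2.12% of 13940 genes were higher and 0.839% lower (2.96% in all). After 10 days 2 of the 9, HILPDA and VLDLR, were higher and none lower, where 14.4% of all genes were higher and 7.06% lower (21.5% in all). The median log2 difference of the 9 genes was 0.06 after 1 day and 0.53 after 10 days, with 5 and 8 of the 9 above 0, beside medians of 0.00 and 0.02 over all genes. In reoxygenated cells 2 of the 9, HILPDA at −2.27 (−2.67 to −1.93) and VLDLR at −1.25 (−1.51 to −1.02), were lower than after 10 days at 1% O2 and none was higher, where 11.1% of all genes were lower and 5.61% higher (16.8% in all). Against the 20% O2 cells of day 10, none of the 9 passed the rule in reoxygenated cells (3.4% of all genes were higher and 1.41% lower, 4.81% in all); HILPDA differed by 0.15 (−0.31 to 0.60) and VLDLR by 0.23 (−0.05 to 0.52). None passed it between day 10 and day 1 at 20% O2 either, where 3.06% of all genes were higher on day 10 and 1.31% lower (4.37% in all). In the chronic minus acute contrast 2 of the 9 passed it, HILPDA at 2.01 and DGAT1 at 1.37 (0.93 to 1.84), where 12.5% of all genes were higher and 6.18% lower (18.7% in all). These contrasts share libraries and are not independent of each other.

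In edgeR's test over the 4 libraries of day 1 and day 10, 1 of the 9 genes tested (VLDLR) rose with an adjusted p under 0.05 and none fell, where 0.899% of 13011 genes rose and 0.0999% fell; 2 of the 9 had an unadjusted p under 0.05, as did 1593 of all 13011. DESeq2 called 1 of the 9 and 49 of all 13011 genes, and limma-voom called 2 of the 9 and 224 of all. The model has 1 residual degree of freedom, in which a different response on each day counts as noise. Adjusted p-values of the 7 genes other than VLDLR and HILPDA lay between 0.57 for PNPLA2 and 0.878 for PLIN3. Without the 1% O2 library of day 1, PNPLA2 and DGAT1 were called along with VLDLR and HILPDA, but so were 4225 genes in all. Whether each library came from its own culture is not stated, so these p-values may not cover the spread between cultures.

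**Figure D3:**
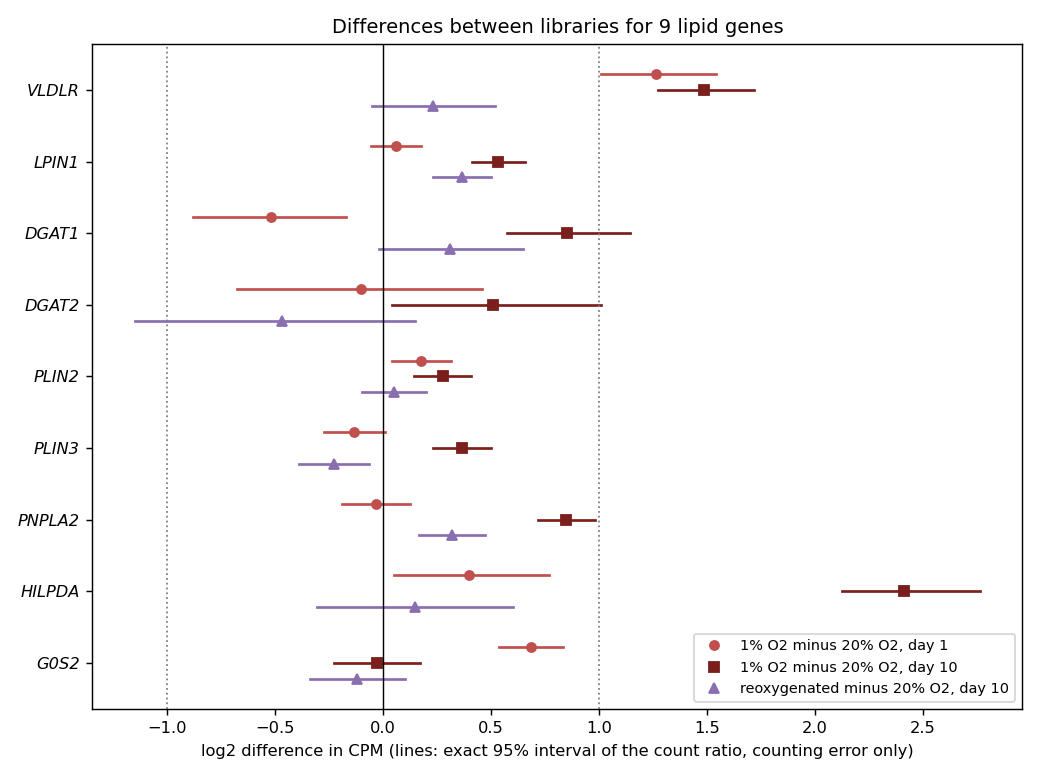
Log2 difference in CPM of the 9 genes for 1% O2 minus 20% O2 on day 1, 1% O2 minus 20% O2 on day 10, and reoxygenated minus 20% O2 of day 10. Each line spans an exact 95% interval for counting error, and dotted lines mark a 2-fold difference. VLDLR lies past 2-fold on both days, HILPDA on day 10 at 2.41, and DGAT1 lies below 0 on day 1 and above 0 on day 10.

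Genes whose profile over the 5 libraries was most like that of a lipid gene were found by the root mean square difference of centred log2 CPM, among 11393 genes with at least 5 CPM in 1 or more libraries and no LOC or hyphenated symbol. Closest to HILPDA were IRS2 (0.12), PPP1R3B (0.14) and ST3GAL1 (0.14), which encode an insulin receptor adaptor, a glycogen-targeting subunit of protein phosphatase and a sialyltransferase. IRS2 had 59.9 CPM after 1 day at 1% O2, against 50.9 CPM at 20% O2, and 47.1 CPM in reoxygenated cells, 216 CPM after 10 days at 1% O2 and 41.4 CPM after 10 days at 20% O2. Closest to VLDLR were BNIP3L (0.13), which encodes a mitophagy receptor, C5orf45 (0.13) and ZNF470 (0.14). C5orf45 was low, at 5.36 CPM after 10 days at 1% O2 and 1.25 to 3.06 CPM elsewhere, and passed the 5 CPM filter only through that library. Closest to PLIN2 were OAF, SUN1 and AGPAT4 (0.02 each), the last an acyltransferase of the same synthesis route, although a profile as flat as that of PLIN2 has many near neighbours. Within the 9 genes, PNPLA2 and DGAT1 were each other's nearest, at 0.15, as were PLIN3 and DGAT2, also at 0.15, and HILPDA and VLDLR, further apart at 0.45.

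Other genes of lipid handling were described from lists. Among 18 measured lipoprotein receptor and fatty acid uptake genes, 2 were higher past 2-fold and 1 lower after 1 day at 1% O2, and 4 were higher and 1 lower after 10 days, with medians of 0.03 and 0.30. Over all genes, 2.12% were higher and 0.839% lower on day 1, and 14.4% were higher and 7.06% lower on day 10. ANGPTL4, which encodes an inhibitor of lipoprotein lipase, had 194 counts after 1 day at 1% O2, against 41 at 20% O2, and 1361 counts after 10 days at 1% O2, against 68. LRP1, a broad-range lipoprotein and protease receptor, had 294 counts after 1 day at 1% O2, against 150, and 1361 after 10 days, against 256. LRP2 (megalin) was higher from fewer counts, 177 after 10 days at 1% O2, against 14 at 20% O2. In edgeR's test ANGPTL4 (adjusted p = 3.85e-06), LRP1 (adjusted p = 0.00231) and LRP2 (adjusted p = 0.0119) rose, 3 of 17 tested. Over all genes, 0.899% rose. The 3 log2 changes were 3.48, 1.82 and 2.74, each higher on both days. DESeq2 called 2 of the 17 and 49 of all 13011 genes, and limma-voom called 3 of the 17 and 224 of all. None of the 3 was called without the day term (adjusted p = 0.772 each) or without either 20% O2 library (1.00 each). Without the 1% O2 library of day 10, ANGPTL4 had an adjusted p of 0.0495, and LRP1 and LRP2 one of 1.00. Leaving out 1 library moved the log2 changes to between 1.91 and 4.82 for ANGPTL4, 0.62 and 2.93 for LRP1, and 1.27 and 3.93 for LRP2, each lowest without the 1% O2 library of day 10 and highest without that of day 1. FABP5, another cytosolic fatty acid binding protein, had 122 counts after 10 days at 1% O2, against 491 at 20% O2, a log2 difference of −1.76 (−2.07 to −1.49), with an adjusted p of 0.205 in edgeR's test; it was named after its values were seen.

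Genes of glycerolipid and sterol ester synthesis had a median log2 difference of 0.04 on both days over 17 measured genes. None passed 2-fold after 1 day at 1% O2, where 2.12% of all genes were higher and 0.839% lower, so that this count is near the share of all genes. After 10 days none was higher and 4 were lower, where 14.4% of all genes were higher and 7.06% lower. SOAT1, which esterifies cholesterol for storage, had 825 counts after 10 days at 1% O2, against 2326 at 20% O2, a log2 difference of −1.26 (−1.38 to −1.15). GPAM, which starts glycerolipid synthesis in mitochondria, was lower by −1.08 (−1.38 to −0.81) and GPAT2 by −1.08 (−1.35 to −0.82); GPAT3, outside the rule for named genes, was the fourth, at −1.05. DGAT1 on day 10 thus lay in the opposite direction from these 4. None of the 17 passed edgeR's test, with 1 gene at an unadjusted p under 0.05, and neither DESeq2 nor limma-voom called any. Over all 13011 genes, 0.899% rose, 0.0999% fell and 1593 had an unadjusted p under 0.05. DESeq2 called 49 of all genes and limma-voom 224. At such shares, a list of 17 is likely to hold no called gene.

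Of 12 measured droplet coat and assembly genes, none passed 2-fold after 1 day at 1% O2, where 2.96% of all genes did. After 10 days 4 were higher and none lower, while the list's median was −0.57. Of all genes, 14.4% were higher and 7.06% lower on day 10. METTL7A, a droplet-associated methyltransferase-like protein, had 57 counts after 10 days at 1% O2, against 17 at 20% O2 (log2 1.84, 1.18 to 2.85), and TMEM159, also called LDAF1, a partner of seipin in droplet formation, had 314 counts, against 135 (1.43, 1.15 to 1.75). The other 2, HSD17B13 and PLIN4, named after their values were seen, had 11 counts each after 10 days at 1% O2, against 3 and 1 at 20% O2. At 1.05 CPM in that library, both lay just above the filter of 1 CPM. PLIN4 had at most 0.251 CPM in any other library and passed the filter only through that one. Its place among the 4 higher genes is therefore not independent of the filter. AUP1, a droplet and endoplasmic reticulum protein, was lower by −0.94 (−1.04 to −0.83). Among 10 measured lipolysis and turnover genes none passed 2-fold on day 1, where 2.96% of all genes did. On day 10, where 21.5% of all genes did, 1 passed it, the carboxylesterase gene CES1, at 73 counts at 1% O2, against 31 at 20% O2. PNPLA3, a relative of PNPLA2, differed by 0.59 (0.04 to 1.2) and ABHD6, a monoacylglycerol lipase, by 0.56 (0.25 to 0.90) on day 10. None of the 20 measured genes of fatty acid activation and oxidation passed 2-fold on either day, with medians of −0.09 and −0.19. Of all genes, 2.96% passed it on day 1 and 21.5% on day 10, so that the day 1 count is near the share of all genes. HADH (−0.68), ETFA (−0.67) and ACSL5 (−0.64) lay furthest from 0 on day 10. In edgeR's test none of these 3 lists had a called gene (10, 10 and 20 tested), with 1, 0 and 0 genes at an unadjusted p under 0.05. Over all 13011 genes, 0.899% rose, 0.0999% fell and 1593 had an unadjusted p under 0.05. Neither DESeq2 nor limma-voom called any gene of these lists, where they called 49 and 224 of all. At such shares, lists this short are likely to hold no called gene.

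**Figure D4:**
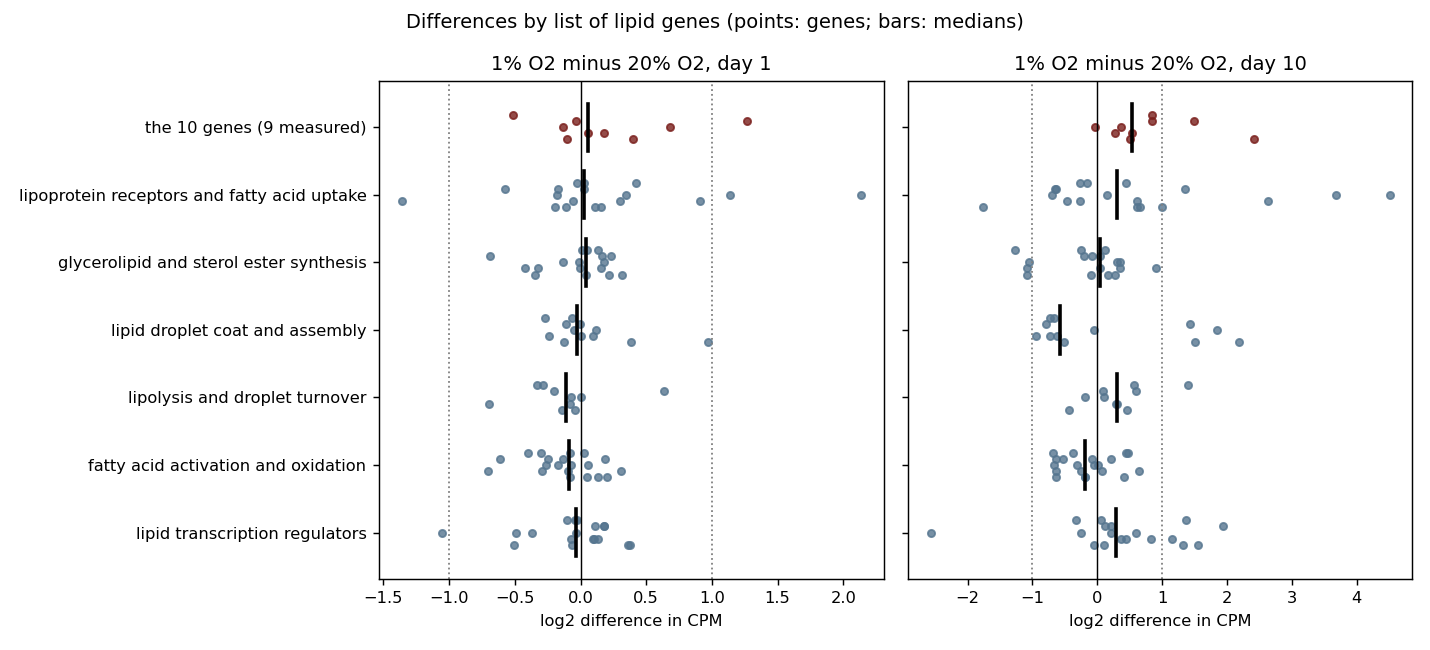
Log2 difference in CPM of single genes (points) by list, for 1% O2 minus 20% O2 on day 1 (left) and day 10 (right), with the list median as a bar and dotted lines at a 2-fold difference; the 2 panels have different horizontal scales. Uptake genes reach 4.51 on day 10 (ANGPTL4), whereas no gene of fatty acid activation and oxidation passes 2-fold. Of all genes, 2.96% pass it on day 1 and 21.5% on day 10.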

How the data were processed

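The 5 libraries were made from purified total RNA with an mRNA kit, per the labels' protocols. The submitters' processing notes name Bowtie2 2.1.0, RSEM 1.2.15, edgeR and the hg38 build; the annotation and strand setting were not found in the labels or headers. The authors deposited expected counts for each gene symbol, which are estimates and not normalized, and a second table of normalized values, treated here as a signal on a CPM scale. There, 100% of values came out as whole reads within 0.05 reads, and at least 99.9% equalled the rounded expected count, so a count test on it uses the same reads.

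Expected counts were rounded. TMM factors (0.965 to 1.07; edgeR 4.0.16, R 4.3.3) were computed over the 13940 genes that passed 1 CPM, and log2 CPM with a prior count of 2. Differences were described by a 2-fold rule, with exact Clopper-Pearson, Fisher (chronic minus acute) and Poisson 95% intervals, which cover counting error only. The oxygen test was edgeR's quasi-likelihood fit with oxygen and day as terms on 4 libraries, for 13011 genes at 1 CPM or more in 2 or more of them, with 1 residual and 29.8 prior degrees of freedom and Benjamini-Hochberg adjustment at 0.05; SE is the log2 change over the square root of F. No outcome of this test on simulated data is given here, so its error rate with 1 library per condition is not known. DESeq2 1.42.0 and limma 3.58.1 were alternatives.

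The genes and lists were chosen with earlier results of these data known. Beside the 10 genes, up to 3 per list were named, by the largest day 10 difference among genes at 5 CPM or more whose interval excludes 0, and the 3 nearest profiles of HILPDA, PLIN2 and VLDLR. Coordinates are from RefSeq (GRCh38.p14), lengths and overlaps from GENCODE release 29.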

Additional observations from a re-analysis of the deposited data

Results flagged for a closer look

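DGAT1 differed in opposite directions on the 2 days: its log2 difference at 1% O2 was −0.52 after 1 day and 0.85 after 10 days, each with a counting interval that excludes 0. With 1 library per condition, this difference between days was not tested against replicate spread. At 20% O2 alone, DGAT1 on day 10 differed from day 1 by −0.16 (−0.48 to 0.16).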

How the results depend on the processing

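Of 378 alternative values for single genes in the 6 contrasts, 377 stayed within the counting interval and 1 moved: LPIN1 on day 10, at 0.66 with library totals. Library totals shifted the median of all genes by 0.12 on day 10. No difference past 2-fold changed sign. Counts of genes past 2-fold stayed within 1.5 times; DGAT2 joined HILPDA and VLDLR, making 3, in reoxygenated cells against 1% O2 of day 10 with DESeq2 size factors, library totals, no filter, a 5 CPM filter or a prior count of 0.5, and PNPLA2 joined in the chronic minus acute contrast with library totals.

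The oxygen test was less stable. It called 1 of the 9 genes as reported, and 130 of all 13011. The count was 2 with limma-voom, where 224 of all genes were called, and 2 without a filter, where 281 of 17935 were. It was also 2 with TMM factors over all 5 libraries (added after seeing the data), where 230 of all were called. Without the day term it was 0, as it was over all genes. Fits that left out 1 library, which also drop the day term, called 0 to 4; the 4 came without the 1% O2 library of day 1, when 4225 genes in all passed. These fits assume that a lone library varies like the pair of the other arm. No paired analysis was possible because each condition had 1 library and the labels number no replicates, beyond the day term, which already sets the libraries of each day against each other. Depth limits DGAT2, at 31 to 82 counts, and FABP3, at 0.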

Other observations

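Of 18 measured lipid transcription regulators, 5 were higher past 2-fold and 1 lower after 10 days at 1% O2, where 14.4% of all genes were higher and 7.06% lower. After 1 day none was higher and 1 lower, where 2.12% of all genes were higher and 0.839% lower. PPARGC1A, a coactivator of mitochondrial and fatty acid oxidation genes, had 175 counts after 10 days at 1% O2, against 52 at 20% O2, a log2 difference of 1.94 (1.53 to 2.46), and was higher by 1.16 in reoxygenated cells than in the 20% O2 cells of day 10. CEBPB was higher by 1.55 (1.44 to 1.67). The other 3, named after their values were seen, were PPARA, at 683 counts, against 320; EPAS1, at 3062, against 1613; and MLXIPL, at 43, against 18, each on day 10. HIF1A, the lower gene, had 820 counts after 10 days at 1% O2, against 5727 at 20% O2. It fell in edgeR's test (log2 change −1.79, adjusted p = 0.00216), 1 of 18 tested, where 0.0999% of all genes fell. HIF1A was also the 1 gene of the 18 called by DESeq2 and by limma-voom, which called 49 and 224 of all 13011 genes. Over the 11 other settings its adjusted p ran from 1.54e-05 to 1.00, and it was lost without the day term or without either 20% O2 library. Its log2 change was −1.18 without the 1% O2 library of day 10 and −2.40 without that of day 1.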
